A study of Mus musculus with 12 samples.

Results

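The matrix metalloproteases (Mmp genes), the ADAMTS proteases (Adamts genes) and the tissue inhibitors of metalloproteases (Timp genes) were described across microarrays of cultured mouse cardiac fibroblasts. Every gene whose symbol in the platform's annotation was Mmp, Adamts or Timp followed by its number was taken, so that no measured value entered the choice. This gave 43 genes of 19505 named genes, 21 of them Mmp, 18 Adamts and 4 Timp. Each had 1 probe set, and none shared its values with another gene. Mmp15, Mmp27 and Adamts2 were not analysed here.

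RNA came from primary heart fibroblasts of wild-type C57BL/6J mice aged 1 to 7 days, kept in culture for 10 to 14 days until the cells were myofibroblasts, the contractile, matrix-producing form of the fibroblast. The 12 arrays fell into 4 groups of 3, all treated for 8 h: 40 nM sCD74 together with 8 nM MIF, 8 nM MIF alone, 40 nM sCD74 alone, and carrier. MIF, macrophage migration inhibitory factor, is a secreted cytokine, and sCD74 is a soluble form of CD74, the surface protein to which MIF binds. The groups ask what each protein, and both together, do to transcript levels. Arrays are numbered 1 to 3 within each group, and the titles give the 4 arrays of a number a shared code that reads as a date. The labels do not say what it dates, nor whether arrays of a group came from separate cell isolations, so p-values measure the spread between these samples, which may be technical.

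Matrix metalloproteases are zinc endopeptidases that are secreted or membrane-bound, are made as inactive proenzymes and together can cleave most proteins of the extracellular matrix. ADAMTS proteases are secreted enzymes of a related fold that bind the matrix through thrombospondin repeats, and they cut proteoglycans such as versican, procollagens and proteins of the fibrillin network. TIMPs are small secreted proteins that block the active sites of these enzymes. Cardiac fibroblasts make many of them, and the balance of proteases and inhibitors bears on how the collagen scar of an injured heart is built and remodelled.

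Values are log2 expression as the authors deposited them, differences are on that log2 scale, and an error after a difference is its standard error in the fit. Treatment differences and their errors come from a fit without the replicate number, unless the text says otherwise. Array medians lay between 8.01 and 8.14. The negative control probe sets of the platform gave a median of 7.53 on average over the arrays, and this level serves as background below. The cultures held mixed cell types: all 11 fibroblast marker genes measured were above background on all 12 arrays, and so were 14 of 15 macrophage markers, 10 of 11 endothelial markers and 6 of 10 cardiomyocyte markers. Of 7 neutrophil markers, 5 (S100a8, Elane, Mpo, Retnlg and Ngp) lay below background on every array. In such mixed RNA, fewer cells of a type and less RNA per cell cannot be told apart.

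Of the 43 genes, 24 were above the negative control median of their own array on all 12 arrays, 2 on some (Adamts17 on 10 and Mmp13 on 7) and 17 on none. Those above the stricter 95th percentile of the negative controls on every array numbered 14: Mmp2, Mmp3, Mmp12, Mmp14, Mmp16, Mmp19, Mmp23, Adamts1, Adamts5, Adamts9, Adamts10, Timp1, Timp2 and Timp3. They include gelatinase A (Mmp2), the membrane protease that activates it (Mmp14), and the inhibitor that takes part in that activation (Timp2). Mmp2 ranged from 16.10 to 16.72 over the 12 arrays, Timp2 from 16.17 to 16.64 and Mmp14 from 14.44 to 15.21. Timp3, an inhibitor that stays bound to the matrix, ranged from 14.57 to 15.31.

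The genes never above background included gelatinase B (Mmp9, at most 6.33), Timp4, an inhibitor best known from the heart (at most 7.29), the mouse interstitial collagenases Mmp1a and Mmp1b, matrilysin (Mmp7), stromelysin-2 (Mmp10) and enamelysin (Mmp20). Also in this set were the membrane-type Mmp17, Mmp24 and Mmp25, together with Mmp21, Mmp28, Adamts8, Adamts13, Adamts16, Adamts18 and Adamts19. No size of difference is given for these 17. By mean over the 12 arrays, 26 of the 43 genes lay above 7.53, against 11290 of all 19505 genes. Levels of different genes come from different probes and were not ranked against each other.

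Of the Mmp genes, 9 lie in one run on chromosome 9, from Mmp13 to Mmp7, in which all 10 protein-coding genes of the RefSeq table are Mmp genes. Their promoters are shown because genes of this run stood differently to background in these cells: Mmp3 and Mmp12 were above the 95th percentile of the negative controls on all arrays and Mmp8 above their median, Mmp13 lay at that median, and Mmp1a, Mmp1b, Mmp10, Mmp20 and Mmp7 stayed below it. RefSeq promoter windows (assembly GRCm38.p6, the 250 bases before an annotated start) were at hand for 29 of the 43 genes, as 32 windows. AP-1 is the Fos and Jun family of transcription factors, and the letters of its classical element, TGACTCA, were searched on both strands. They occurred in 7 genes, all in this run: 7 of the 11 windows of the run (63.6%) and 0 of the 21 windows outside it, against 4.46% of all 32851 promoter windows. The letters TATAAA on the gene's strand also stood in 63.6% of the run's windows, against 7.59% of all windows. Below are stretches of 100 bases, 5′ to 3′ on the gene's strand, with the AP-1 letters and TATAAA in capitals.
Mmp13: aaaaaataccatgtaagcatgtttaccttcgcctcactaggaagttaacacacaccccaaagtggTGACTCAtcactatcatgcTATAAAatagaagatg
Mmp12: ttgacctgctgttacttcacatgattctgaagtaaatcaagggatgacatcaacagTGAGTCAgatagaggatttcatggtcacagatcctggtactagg
Mmp1b: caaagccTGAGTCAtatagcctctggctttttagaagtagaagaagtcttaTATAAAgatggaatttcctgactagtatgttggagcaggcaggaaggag
Mmp3: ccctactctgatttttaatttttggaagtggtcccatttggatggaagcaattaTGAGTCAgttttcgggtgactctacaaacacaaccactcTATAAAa
Mmp1a: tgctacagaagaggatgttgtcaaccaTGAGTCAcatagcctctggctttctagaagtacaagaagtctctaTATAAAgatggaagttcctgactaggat
Mmp10: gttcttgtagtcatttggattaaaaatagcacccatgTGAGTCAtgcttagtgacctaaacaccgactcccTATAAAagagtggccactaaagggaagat
Mmp7: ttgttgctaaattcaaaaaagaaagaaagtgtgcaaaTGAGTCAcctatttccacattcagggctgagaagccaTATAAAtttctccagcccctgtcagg
In GRCm38.p6 these lie, in the same order, at chr9:7272414-7272513, plus strand, chr9:7347274-7347373, plus strand, chr9:7388027-7388126, minus strand, chr9:7445722-7445821, plus strand, chr9:7464041-7464140, plus strand, chr9:7502242-7502341, plus strand, and chr9:7691990-7692089, plus strand. The AP-1 letters began 35 bases before the start in Mmp13, 44 in Mmp12, 93 in Mmp1b, 46 in Mmp3, 73 in Mmp1a, and 63 in Mmp10 and in Mmp7. Mmp12 and Mmp7 have a second window without them, and the windows of Mmp8 and Mmp20 hold none. The genes with these letters thus ranged from well above background to below it, and a match of letters is a description, not a binding site.

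Outside the run the promoters were richer in G and C, with a median of 63.2% over their 250 bases, against 40.4% in the run. The GC box, GGGCGG on either strand and the classical letters bound by Sp1, occurred in 14 of the 21 windows outside the run (66.7%) and in 0 of the 11 in it, against 32.7% of all windows. The windows of Timp1, Timp2 and Mmp14 each hold a GC box, in capitals. They are shown as examples from the genes that differed between replicate numbers, below. These genes lay above the stricter percentile of the negative controls on all arrays, but so did Mmp23, whose windows hold no GC box. Mmp24, Mmp25, Mmp28 and Adamts18, never above background, do have GC boxes. The letters thus stood in genes well above background and below it, and such a match is a description, not a binding site. G and C made up 54.4% of the bases in Timp1, 68% in Timp2 and 55.2% in Mmp14, against a median of 52.4% over all windows.
Timp1: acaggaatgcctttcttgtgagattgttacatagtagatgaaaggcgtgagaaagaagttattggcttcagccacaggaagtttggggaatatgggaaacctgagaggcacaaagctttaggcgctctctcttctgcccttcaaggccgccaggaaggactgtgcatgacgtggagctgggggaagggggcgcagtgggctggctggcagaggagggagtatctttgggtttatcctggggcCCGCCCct
Timp2: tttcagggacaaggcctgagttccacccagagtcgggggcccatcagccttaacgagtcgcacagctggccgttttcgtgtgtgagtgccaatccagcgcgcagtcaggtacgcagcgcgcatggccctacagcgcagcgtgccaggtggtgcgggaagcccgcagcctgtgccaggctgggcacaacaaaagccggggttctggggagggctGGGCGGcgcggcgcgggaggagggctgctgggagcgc
Mmp14: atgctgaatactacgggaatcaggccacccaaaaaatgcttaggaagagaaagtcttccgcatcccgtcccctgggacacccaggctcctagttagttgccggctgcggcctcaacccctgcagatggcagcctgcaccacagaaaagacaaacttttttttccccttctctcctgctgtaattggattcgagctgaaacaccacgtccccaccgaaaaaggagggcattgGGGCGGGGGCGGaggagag
They lie at chrX:20869916-20870165, plus strand, chr11:118355412-118355661, minus strand, and chr14:54431348-54431597, plus strand of the same assembly. The NF-kappaB consensus, searched on both strands, occurred in 4 of the 32 windows (12.5%), those of Mmp12, Mmp25, Adamts9 and Adamts20, against 5.93% of all windows. The match in Adamts9 overlaps its GC box.

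No treatment moved any of the 43 genes past the test. Neither sCD74+MIF, MIF nor sCD74 against carrier gave a called gene among them (limma, Benjamini-Hochberg adjustment over all 19505 genes, adjusted p under 0.05), and 0% of all genes were called in each. At an unadjusted p under 0.05 there were 3 of the 43 genes with sCD74+MIF (4% of all genes), 2 with MIF (3.35%) and 1 with sCD74 (1.79%). With the replicate number as a block in the fit, the adjusted calls remained 0 of 43 in all 3 comparisons (0% of all genes), and the unadjusted counts were 6 (8.23%), 4 (6.43%) and 1 (4.19%). The median difference over the 43 genes was -0.04 with sCD74+MIF, +0.05 with MIF and +0.06 with sCD74, where the medians of all genes were 0.00, +0.01 and 0.00. A difference had a median standard error of 0.20. The 3 comparisons share the carrier arrays.

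**Figure D1:**
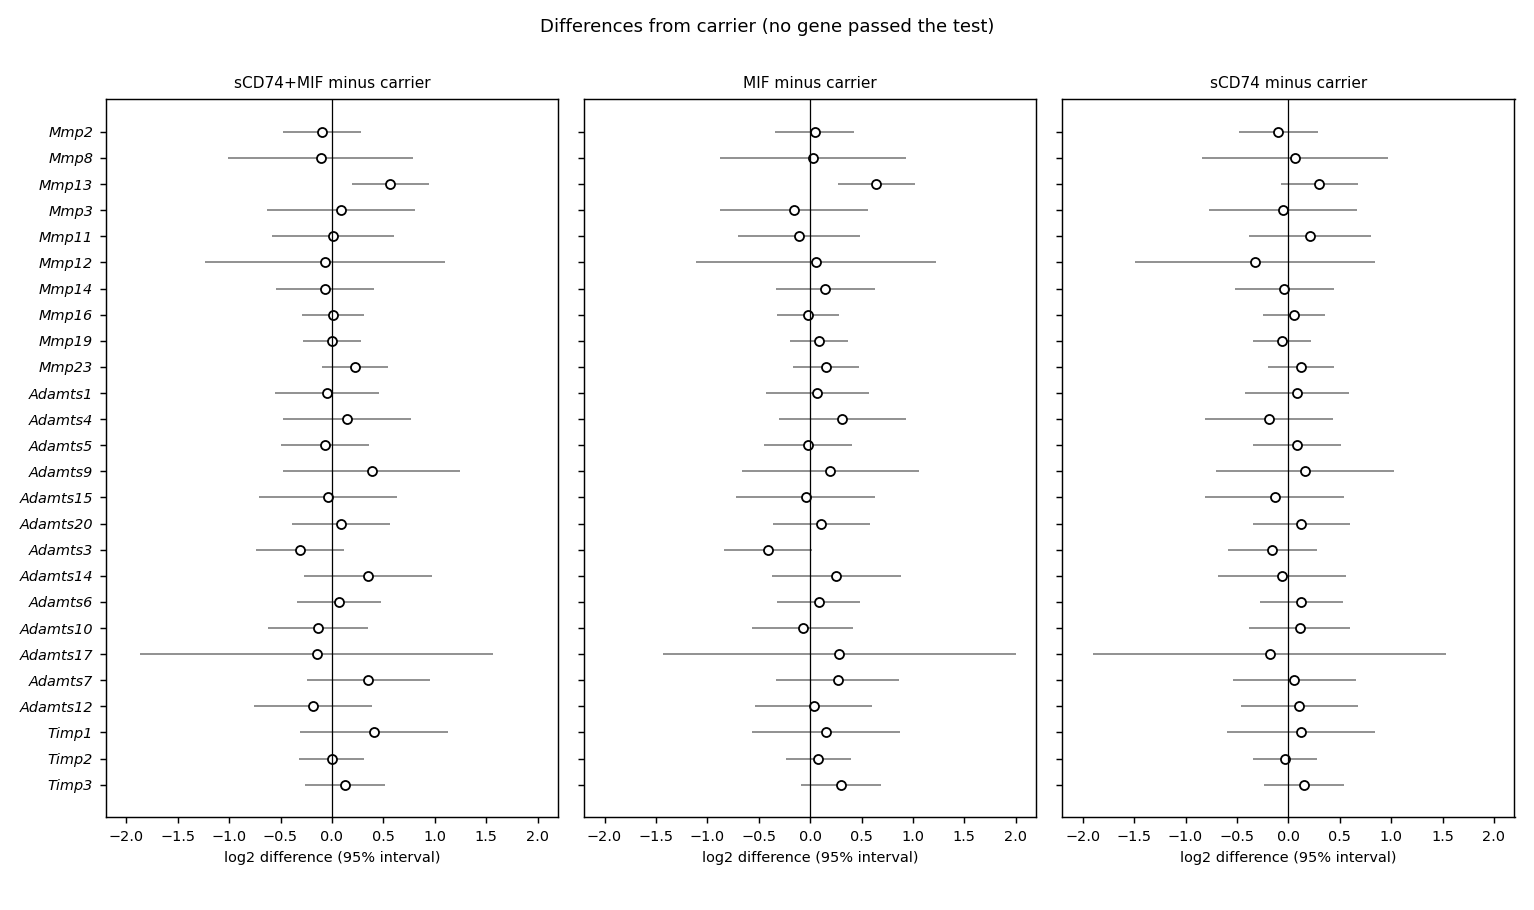
Differences from carrier in log2 expression (x axis) for the 26 genes whose mean lay above background, 1 panel each for sCD74+MIF, MIF and sCD74, 3 arrays a group; points are limma estimates and bars 95% intervals. All intervals span 0 except those of Mmp13 with sCD74+MIF and with MIF, whose carrier arrays lay below background. The intervals come from the fit without the replicate block, so the spread between replicate numbers enters them. With the block, the unadjusted p of Timp1, Adamts9 and Adamts14 with sCD74+MIF was also under 0.05 (limma).

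The smallest p in both comparisons with MIF belonged to Mmp13, the main interstitial collagenase of the mouse. Its level was 7.53, 7.99 and 7.69 in sCD74+MIF cultures numbered 1, 3 and 2, 7.72, 7.96 and 7.76 in MIF cultures, 7.43, 7.31 and 7.68 in sCD74 cultures and 7.50, 7.05 and 6.96 in carrier cultures. Every array with MIF lay above the negative control median of its array, 1 of 3 sCD74 arrays did, and no carrier array did. These medians themselves differed: 7.39 to 7.48 on the arrays with MIF, against 7.69, 7.70 and 7.37 on carrier arrays numbered 1, 3 and 2. The sCD74 array numbered 3 had 7.90. Carrier number 1, at 7.50, lay above the median of every array with MIF. The MIF groups and the carrier group did not overlap, though within number 1 sCD74+MIF was above carrier by only +0.03. With sCD74+MIF the unadjusted p was 0.00633 and the adjusted p 0.999, with MIF the unadjusted p was 0.00271 and the adjusted p 1.00, and with the replicate block the adjusted p values were 0.547 and 0.690. Since the carrier level is at background, the fitted difference (+0.57 ± 0.17 with sCD74+MIF and +0.65 ± 0.17 with MIF, SE) does not measure its size.

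**Figure D2:**
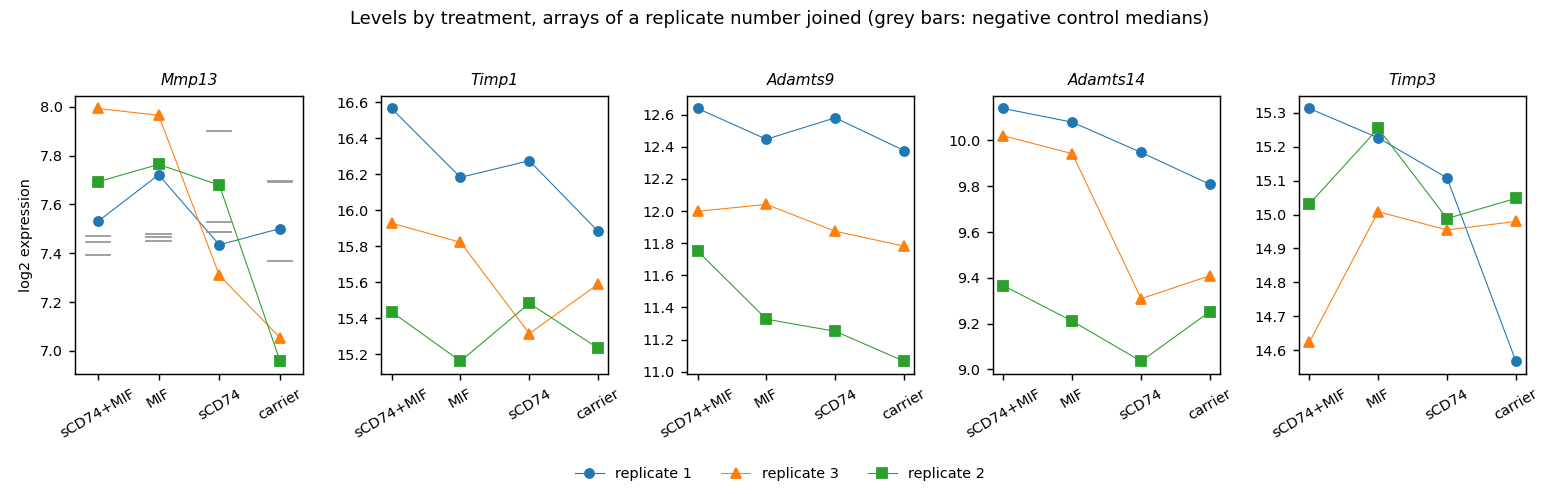
Log2 expression (y axis) of Mmp13, Timp1, Adamts9, Adamts14 and Timp3 on each array, by treatment (x axis), with the 3 arrays of a treatment marked by replicate number and arrays of the same number joined by lines; grey bars in the first panel are each array's negative control median. Mmp13 lies above the grey bars on all 6 arrays with MIF and below them on all 3 carrier arrays, and the bars themselves differ between arrays. In Adamts9 the lines of the 3 numbers stay apart across the treatments.

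Among the inhibitors, Timp1, which blocks most soluble metalloproteases, stood at 16.57, 15.93 and 15.43 in sCD74+MIF cultures numbered 1, 3 and 2, against 15.88, 15.59 and 15.23 in carrier cultures. Within the numbers the difference was +0.68 for number 1, +0.34 for number 3 and +0.20 for number 2, and it was +0.41 ± 0.33 in the fit (95% interval -0.32 to 1.13, adjusted p = 0.999). The groups overlapped, and the spread between numbers was wider than the difference. Timp3 averaged 15.16 ± 0.13 in MIF cultures and 14.87 ± 0.26 in carrier cultures (SD, n = 3 each), a difference of +0.30 ± 0.18 with an adjusted p of 1.00, and all 3 within-number differences were above 0. For Timp2 the 95% interval of the difference from carrier ran from -0.32 to 0.31 with sCD74+MIF, from -0.24 to 0.40 with MIF and from -0.35 to 0.28 with sCD74. Timp4 lay below background in every group.

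Among the matrix metalloproteases, Mmp23, a small membrane-anchored family member, averaged 12.52 ± 0.20 in sCD74+MIF cultures and 12.29 ± 0.24 in carrier cultures (SD, n = 3 each), a difference of +0.23 ± 0.15 that was above 0 within all 3 numbers (adjusted p = 0.999). The gelatinase Mmp2 and its activator Mmp14 differed from carrier by -0.10 ± 0.18 and -0.07 ± 0.22 with sCD74+MIF. Both intervals include 0, reaching from -0.48 to 0.29 for Mmp2 and from -0.55 to 0.41 for Mmp14. For stromelysin-1 (Mmp3) the difference was +0.09 ± 0.33 and for stromelysin-3 (Mmp11) +0.01 ± 0.27. Mmp9 lay below background throughout.

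Among the ADAMTS genes, Adamts9, a protease that cuts versican, was at 12.64, 12.00 and 11.75 in sCD74+MIF cultures numbered 1, 3 and 2, against 12.38, 11.78 and 11.07 in carrier cultures. The within-number differences were +0.26 for number 1, +0.22 for number 3 and +0.69 for number 2, and the fitted one +0.39 ± 0.40. Adamts14, a procollagen N-proteinase, differed by +0.35 ± 0.29, again above 0 within all 3 numbers. With the replicate block the unadjusted p was 0.00912 for Adamts9, 0.0246 for Adamts14 and 0.0227 for Timp1, and the adjusted p was 0.559, 0.577 and 0.575 (limma). Adamts3, another procollagen N-proteinase, differed by -0.41 ± 0.20 with MIF (below 0 within all 3 numbers, adjusted p = 1.00), and the aggrecanase Adamts4 by +0.31 ± 0.29 with MIF (above 0 within 2 of 3). Adamts1 and the aggrecanase Adamts5 differed from carrier by -0.05 ± 0.23 and -0.07 ± 0.20 with sCD74+MIF.

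Besides Mmp13, Mmp23, Timp3, Adamts3 and Adamts4, given above, the genes named for a small p against carrier, up or down, lay below background: Mmp1b, Mmp24, Adamts8 and Adamts18 with sCD74+MIF, Mmp1b and Mmp25 with MIF, and Mmp1b, Mmp20, Mmp21, Mmp28 and Adamts18 with sCD74. Counted by arrays that do not overlap, sCD74+MIF was above carrier for 2 of 43 genes (4.52% of all genes) and below it for 3 (3.96%), MIF was above carrier for 1 (3.64%) and below it for 2 (3.25%), and sCD74 was above it for 0 (2.51%) and below it for 1 (2.71%). Of these genes only Mmp13 reached background on any array.

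The remaining treatment comparisons gave 0 of 43 called genes with and without the replicate block. Against sCD74, sCD74+MIF called 0% of all genes, with 1 of the 43 at an unadjusted p under 0.05 (2.67%) and 3 with the block (5.4%). Against MIF, sCD74+MIF called 0% as well, with 1 unadjusted (2.38%) and 1 with the block (4.43%). The interaction, which asks whether both proteins together depart from the sum of each alone, had 0 genes at an unadjusted p under 0.05 in either fit, where all genes gave 1.86% and 3.86%. Pooling both groups with MIF against both without it gave 2 genes at an unadjusted p under 0.05 (4.31%) and 8 with the block (8.16%). These 8 were Mmp13, Mmp1b, Mmp24, Mmp25, Adamts3, Adamts4, Adamts9 and Adamts14, none with an adjusted p under 0.05, a call that 0.00513% of all genes reached there.

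Between replicate numbers, in contrast to treatments, many of the genes passed the test. All arrays of a number share 1 code, so the p-values of these comparisons measure the spread between arrays within a code, not between codes. With treatment in the fit, 16 of the 43 genes (37.2%) differed between the arrays numbered 1 and those numbered 2 and 3, against 16.4% of all genes. Among genes above background by their mean, 16 of 26 (61.5%) differed, against 24.5% of all such genes. Higher with number 1 were 10 of the 43 genes (7.03% of all genes): Mmp3, Mmp8, Mmp12, Adamts1, Adamts4, Adamts5, Adamts9, Adamts12, Adamts14 and Timp1. Lower were 6 (9.39%): Mmp2, Mmp11, Mmp14, Adamts15, Adamts17 and Timp2. Arrays numbered 1 lay above all 8 others for 4 of the 43 genes (Mmp8, Mmp12, Adamts5 and Adamts9; 4.1% of all genes) and below all 8 others for 3 (Adamts15, Adamts17 and Timp2; 5.71%). The median difference over the 43 genes was +0.07, and +0.02 over all genes.

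**Figure D3:**
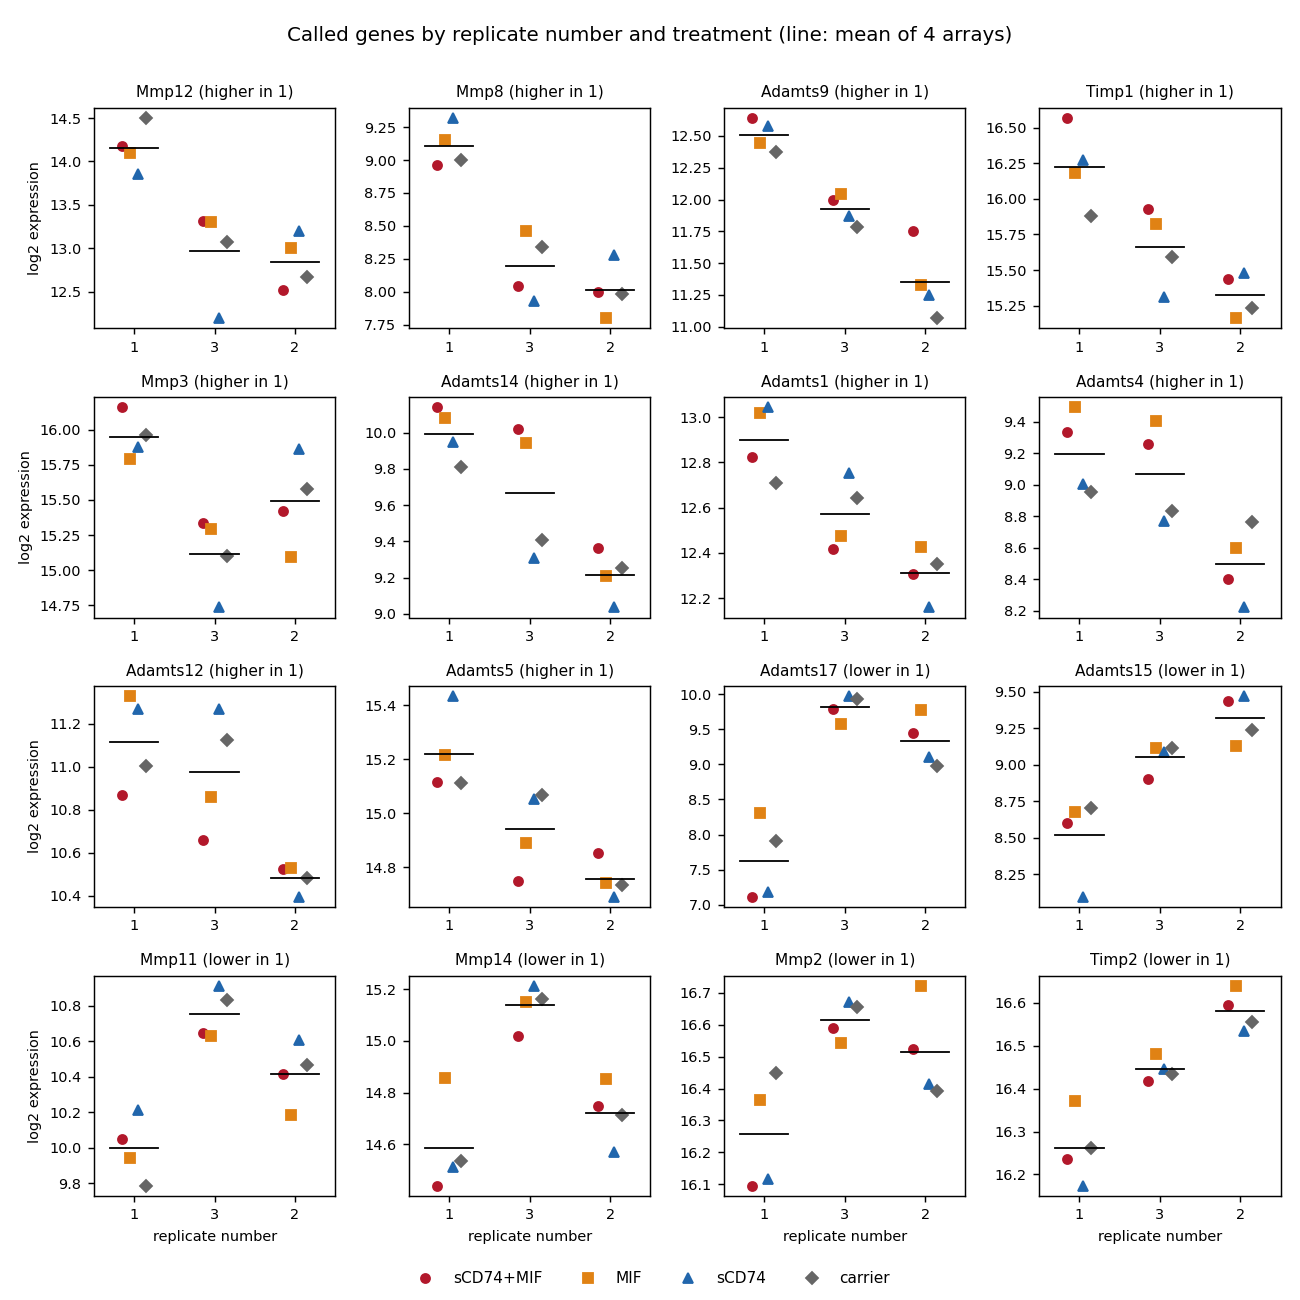
Log2 expression (y axis) of the 16 genes called between replicate number 1 and numbers 2 and 3, by replicate number (x axis: 1, 3, 2), with 1 point per array marked by treatment and a line at the mean of the 4 arrays. In Mmp8, Mmp12, Adamts5 and Adamts9 the 4 points of number 1 lie above all others, and in Adamts15, Adamts17 and Timp2 below all others.

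Values for these genes are listed in the order sCD74+MIF, MIF, sCD74 and carrier. Macrophage metalloelastase (Mmp12), an elastin-cutting enzyme named for its source, measured 14.18, 14.09, 13.86 and 14.50 on the arrays numbered 1, against 13.32, 13.31, 12.19 and 13.07 on those numbered 3 and 12.52, 13.00, 13.20 and 12.66 on those numbered 2. Number 1 was highest in each of the 4 treatments, by +1.25 ± 0.20 (adjusted p = 0.00101). The 15 macrophage markers moved the other way on the same arrays, all 15 called lower with number 1 (9.39% of all genes), with a median of -1.04. Mmp8, the neutrophil collagenase, measured 8.96 to 9.32 on the 4 arrays numbered 1, against 8.05, 8.46, 7.93 and 8.34 on those numbered 3 and 8.00, 7.80, 8.28 and 7.98 on those numbered 2, and was higher by +1.00 ± 0.13 (adjusted p = 0.000178). On no array did Mmp8 pass the 95th percentile of the negative controls, and its sCD74 array numbered 3 (7.93) lay next to that array's negative control median of 7.90. The size of the Mmp8 difference therefore depends on the background level. Of the 7 neutrophil markers 1, Csf3r, was lower with number 1 (9.39% of all genes) and none higher, but 5 of the 7 lay below background on every array. Which cells the Mmp12 and Mmp8 transcripts came from was not tested.

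Stromelysin-1 (Mmp3), which has broad substrates and activates other pro-metalloproteases, measured 16.16, 15.79, 15.88 and 15.96 on the arrays numbered 1, against 15.34, 15.29, 14.74 and 15.10 on those numbered 3 and 15.42, 15.10, 15.86 and 15.58 on those numbered 2. The sets overlapped, and number 1 was higher by +0.64 ± 0.15 (adjusted p = 0.00969). Stromelysin-3 (Mmp11), which furin activates inside the cell, went the other way, with 10.05, 9.94, 10.21 and 9.79 on the arrays numbered 1, against 10.65, 10.63, 10.91 and 10.83 on those numbered 3 and 10.42, 10.18, 10.60 and 10.47 on those numbered 2. Number 1 was lowest in each treatment while the sets overlapped across treatments, and the difference was -0.59 ± 0.09 (adjusted p = 0.000749).

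Members of the axis in which Mmp14 and Timp2 activate pro-Mmp2 were all lower with number 1, by small amounts. Mmp14 measured 14.44, 14.86, 14.51 and 14.54 on the arrays numbered 1, against 15.02, 15.15, 15.21 and 15.16 on those numbered 3 and 14.75, 14.85, 14.57 and 14.71 on those numbered 2, a difference of -0.34 ± 0.09 (adjusted p = 0.0200). Mmp2 measured 16.10, 16.36, 16.12 and 16.45 on the arrays numbered 1, against 16.59, 16.54, 16.67 and 16.66 on those numbered 3 and 16.53, 16.72, 16.41 and 16.39 on those numbered 2, a difference of -0.31 ± 0.10 (adjusted p = 0.0487). In both genes the sets overlapped. Only in Timp2, of the 3, did number 1 lie below all other arrays, with 16.24, 16.37, 16.17 and 16.26 on the arrays numbered 1, against 16.42, 16.48, 16.45 and 16.44 on those numbered 3 and 16.60, 16.64, 16.53 and 16.55 on those numbered 2, a difference of -0.25 ± 0.08 (adjusted p = 0.0392). These calls lie near the threshold: Timp2 lost it on leaving out any of the 12 arrays in turn (adjusted p 0.0525 to 0.140), Mmp2 without any but the MIF array numbered 3 or the carrier arrays numbered 1 and 2 (0.0738 to 0.178) and Mmp14 without the number 1 array of sCD74+MIF (0.0874), sCD74 (0.0779) or carrier (0.0707).

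Timp1 moved opposite to Timp2. It measured 16.57, 16.18, 16.28 and 15.88 on the arrays numbered 1, against 15.93, 15.82, 15.31 and 15.59 on those numbered 3 and 15.43, 15.16, 15.48 and 15.23 on those numbered 2, and was higher with number 1 by +0.73 ± 0.12 (adjusted p = 0.00109). Number 1 gave the highest array in each treatment, though the sets overlapped across treatments. Timp3 differed by +0.07 ± 0.13 (95% interval -0.21 to 0.34, adjusted p = 0.774).

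**Figure D4:**
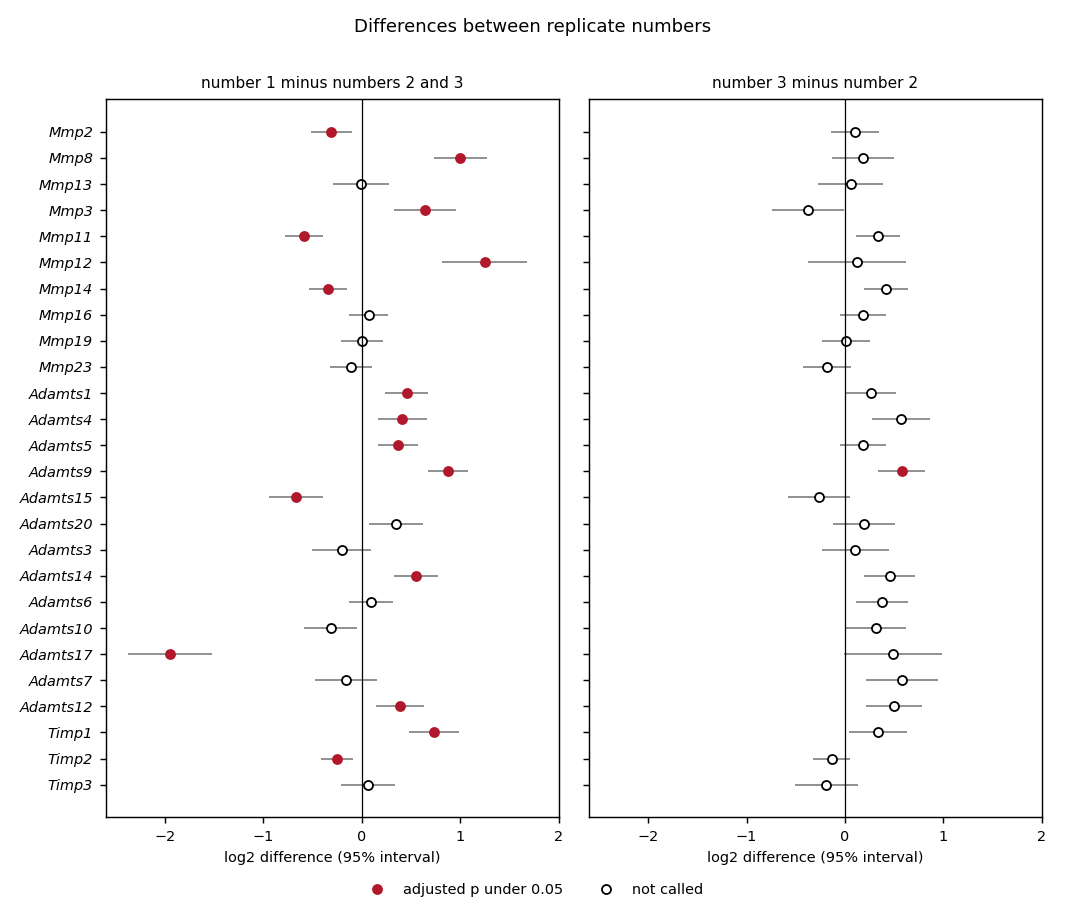
Differences in log2 expression (x axis) between replicate number 1 and the mean of numbers 2 and 3 (left) and between numbers 3 and 2 (right) for the 26 genes above background by their mean; points are limma estimates with treatment in the fit, bars 95% intervals, and filled points passed an adjusted p of 0.05. Of the filled points on the left, 10 lie above 0 and 6 below it, and Adamts9 is the filled point on the right.

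The ADAMTS proteases that cut versican and aggrecan gave 5 calls among 7 genes, 4 higher and 1 lower, where 16.4% of all genes were called, 7.03% higher and 9.39% lower. Adamts9 measured 12.64, 12.45, 12.58 and 12.38 on the arrays numbered 1, against 12.00, 12.04, 11.87 and 11.78 on those numbered 3 and 11.75, 11.33, 11.25 and 11.07 on those numbered 2, and was higher by +0.87 ± 0.09 (adjusted p = 6.35e-05), with no overlap. Adamts1 measured 12.82, 13.02, 13.04 and 12.71 on the arrays numbered 1, against 12.42, 12.47, 12.75 and 12.64 on those numbered 3 and 12.31, 12.43, 12.16 and 12.35 on those numbered 2, higher by +0.46 ± 0.10 (adjusted p = 0.00824), and its sets overlapped. The aggrecanases Adamts4 and Adamts5 were higher by +0.41 ± 0.12 and +0.37 ± 0.09 (adjusted p = 0.0293 and 0.0179). Adamts5 ranged from 15.11 to 15.43 with number 1, against 14.69 to 15.07 with the other numbers, and Adamts4 from 8.95 to 9.49, against 8.22 to 9.41. Adamts20, a relative of Adamts9, differed by +0.35 ± 0.12 without passing (adjusted p = 0.0782), though it was called when only genes above background were tested or without the treatment term, and Adamts8 lay below background. Adamts5 lost its call without the number 1 array of MIF (adjusted p = 0.0588) or of sCD74 (0.0988), and Adamts4 without any array (0.0528 to 0.111) but the sCD74+MIF and MIF arrays numbered 3 and the carrier arrays numbered 1 and 2.

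Adamts15, of the same class, went the other way, with 8.60, 8.68, 8.10 and 8.70 on the arrays numbered 1, against 8.90, 9.11, 9.09 and 9.11 on those numbered 3 and 9.44, 9.13, 9.47 and 9.24 on those numbered 2. All 4 arrays numbered 1 lay below the other 8, and the difference was -0.67 ± 0.12 (adjusted p = 0.00300). Adamts17, a protease linked to the fibrillin network, showed the largest difference of the 16 genes, with 7.12, 8.30, 7.18 and 7.91 on the arrays numbered 1, against 9.80, 9.57, 9.97 and 9.93 on those numbered 3 and 9.45, 9.78, 9.11 and 8.97 on those numbered 2. Its difference was -1.95 ± 0.20 (adjusted p = 4.29e-05), and 2 of the 4 arrays numbered 1 lay below their negative control median, so this size depends on the background level.

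Adamts14, which trims the amino end of procollagens, measured 10.14, 10.08, 9.95 and 9.81 on the arrays numbered 1, against 10.02, 9.94, 9.31 and 9.41 on those numbered 3 and 9.37, 9.21, 9.04 and 9.25 on those numbered 2, and was higher by +0.55 ± 0.10 (adjusted p = 0.00293). Number 1 was highest in each treatment, while the sets overlapped across treatments. Adamts3, with the same activity, differed by -0.20 ± 0.14 (adjusted p = 0.351). Adamts12, a protease that cuts cartilage oligomeric matrix protein, was higher by +0.39 ± 0.11 (adjusted p = 0.0354), with 10.87 to 11.33 for number 1, against 10.40 to 11.27 for the other numbers. It lost the call without any array (adjusted p 0.0547 to 0.146) but the sCD74+MIF array numbered 2, the sCD74 array numbered 3 and the carrier arrays numbered 1 and 3. Leaving out the sCD74 array numbered 1 left 10 called genes, against 16 with all arrays.

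Between number 3 and number 2, 1 of the 43 genes was called, against 1.15% of all genes, and 1 of 26 above background, against 1.78%. This was Adamts9, higher with number 3 by +0.57 ± 0.11 (adjusted p = 0.0286; 0.441% of all genes were called higher). Its levels given above thus fell into 3 sets that do not overlap, highest with number 1 and lowest with number 2. The call was lost without the number 2 or number 3 array of MIF (adjusted p = 0.0666 and 0.0755), of sCD74 (0.138 and 0.0922) or of carrier (0.120 and 0.114). None of the 43 genes was called lower (0.708% of all genes). Arrays numbered 3 lay above all arrays numbered 2 for 6 genes, namely Mmp11, Mmp14, Adamts4, Adamts6, Adamts9 and Adamts12 (5.5% of all genes), and below them for 2, Adamts15 and Timp2 (4.94%). Adamts4 differed by +0.57 ± 0.13 (adjusted p = 0.0668) and Mmp14 by +0.42 ± 0.10 (adjusted p = 0.0790).

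Cell type markers moved with the replicate numbers, and their part in the differences above was not tested. The mean level of the 15 macrophage markers was 12.74 to 13.12 on arrays numbered 1, against 13.46 to 13.89 with number 3 and 13.98 to 14.25 with number 2. The 11 endothelial markers ran the other way, at 10.85 to 10.94 with number 1, against 9.88 to 10.15 with number 3 and 9.46 to 9.58 with number 2. With number 1, 7 of them were called higher (7.03% of all genes) and 1, Vwf, lower (9.39%). Of the 7, Cldn5 was above the negative control median of its array on 1 of 12 arrays. The order of the endothelial means over the numbers is that of the Adamts9 means. It is also that of every other family gene called higher with number 1 except Mmp3. The 10 cardiomyocyte markers averaged 9.95 to 10.20 with number 1, 8.51 to 8.53 with number 3 and 10.19 to 10.34 with number 2. Called higher in number 1 against the others were 6 (7.03% of all genes), and lower in number 3 against number 2 were 8 (0.708%). Among these, Myh7 was above the negative control median of its array on 4 of 12 arrays and Nppa on 3.

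Of 6 smooth muscle and pericyte markers 3 were higher with number 1, of 6 myofibroblast markers 4, and of 6 epicardial markers 2. In this comparison 16.4% of all genes were called, 7.03% higher. Some of these markers lay near or below background. Wt1 was above the negative control median of its array on 0 of 12 arrays, Actg2 on 3, and Rgs5 and Abcc9 on 4 each. The 11 fibroblast markers gave 0 calls, at 15.06 to 15.23 with number 1, 15.12 to 15.19 with number 3 and 15.04 to 15.09 with number 2. No marker was called between treatments, where the median difference of the macrophage markers was -0.12 with sCD74+MIF, -0.19 with MIF and -0.29 with sCD74. The largest median of a marker list against carrier was that of the 6 myofibroblast markers with sCD74+MIF, at +0.38 with 6 of 6 above 0. In that comparison Timp1, Adamts9, Adamts14, Mmp13 and Mmp23 lay above carrier within all 3 numbers, as did Adamts8, which was below background. Mmp1b, Mmp7, Mmp21, Mmp24, Mmp25 and Adamts18, all below background, lay below carrier within all 3 numbers. The share of all genes on either side was not counted. In numbers 1, 3 and 2 the list averaged 13.05, 12.29 and 12.43 with sCD74+MIF, against 12.22, 12.10 and 12.29 with carrier. Its gap was widest in number 1, as for Timp1 but not for Adamts9, Adamts14, Mmp13 or Mmp23. The part of this list in the differences of those genes was not tested.

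**Figure D5:**
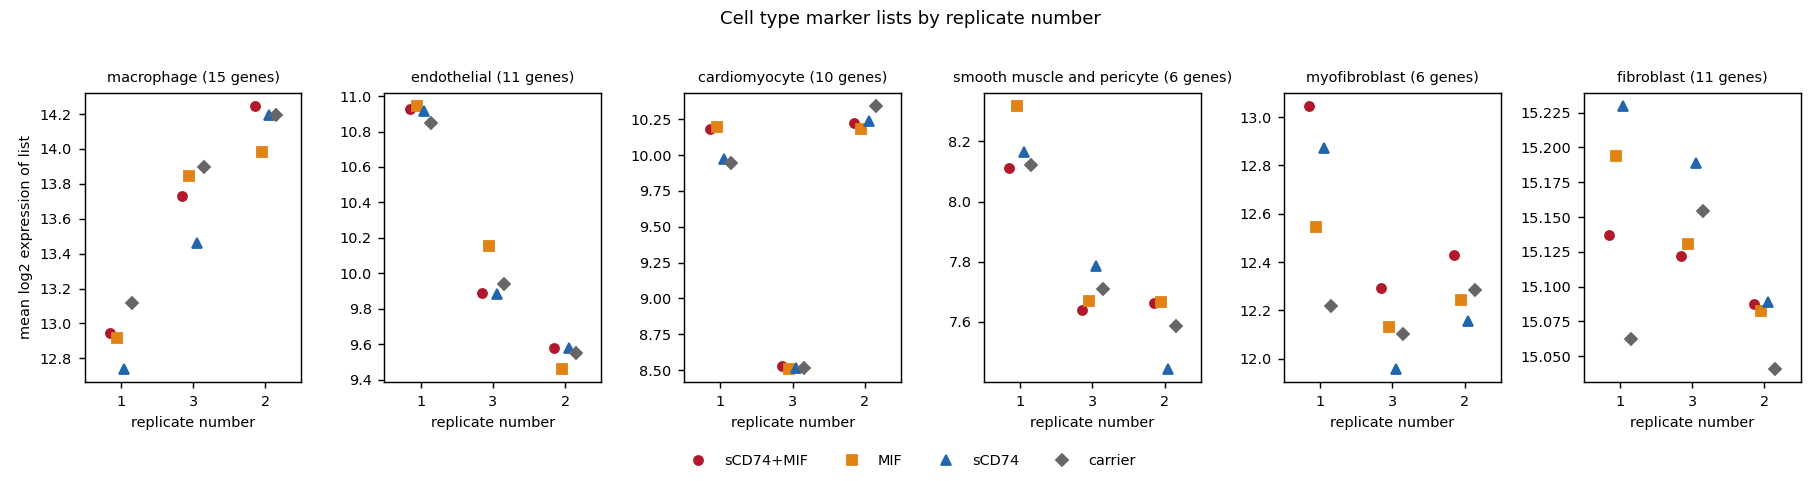
Mean log2 expression (y axis, a scale per panel) of the cell type marker lists on each array, by replicate number (x axis: 1, 3, 2) and marked by treatment. Macrophage markers are lowest and endothelial markers highest with number 1, cardiomyocyte markers are lowest with number 3, and the fibroblast means span 15.04 to 15.23 over all arrays.

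Genes that act on or with these proteases were read in the same comparison of number 1 with numbers 2 and 3. There 16.4% of all genes were called, 7.03% higher and 9.39% lower, and 24.5% of genes above background. The counts of each list, here and in the next paragraphs, stand against these shares. A count near them says nothing particular about its list. Among 9 cysteine cathepsins and cystatins, lysosomal proteases and their inhibitors, 6 were lower and 0 higher, among them Ctsc (-0.83 ± 0.11, adjusted p = 0.000295), Ctsz (-0.81 ± 0.08, adjusted p = 4.11e-05), Cst3 (-0.61 ± 0.08, adjusted p = 0.000197) and Ctss (-0.72 ± 0.11, adjusted p = 0.000645). Macrophages express several of these at high levels, and the macrophage markers were lower on the same arrays. The part of macrophages in the cathepsin and cystatin differences was not tested. Of 11 ADAM family genes, coding for membrane-bound relatives of the ADAMTS enzymes that are not all active proteases, 4 were higher. These were Adam12 by +1.31 ± 0.11, Adam23 by +1.38 ± 0.18, Adam19 by +0.81 ± 0.12 and Adam10 by +0.38 ± 0.08. Adam17, the shedding enzyme that Timp3 inhibits, differed by -0.54 ± 0.08 (adjusted p at most 0.00922 for each of these ADAM genes).

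Of 9 matrix proteoglycans, versican (Vcan) was higher by +1.06 ± 0.13 (adjusted p = 0.000130) and fibromodulin (Fmod) differed by -0.65 ± 0.09 (adjusted p = 0.000489). Versican was also higher with number 3 than with number 2, by +1.39 ± 0.15 (adjusted p = 0.000704). The means of Adamts9, which cuts it, ran in the same order over the numbers. So did those of every other family gene called higher with number 1 except Mmp3, and a link to versican was not tested. Of 15 activators, inhibitors and cofactors outside the family, 3 were higher, the protease inhibitors Tfpi2 (+1.32 ± 0.15, adjusted p = 0.000110) and A2m (+0.70 ± 0.14, adjusted p = 0.00544) and the proprotein convertase Furin (+0.27 ± 0.08, adjusted p = 0.0297). The convertase Pcsk6 (-0.69 ± 0.11, adjusted p = 0.000767) and thrombospondin 2 (Thbs2, -0.48 ± 0.10, adjusted p = 0.00547) were lower. Of 7 genes of the plasminogen system, the activator Plat was higher (+0.44 ± 0.09) and the activator Plau lower (-0.40 ± 0.12, adjusted p = 0.0364).

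Of 5 astacin-type procollagen proteases and their enhancers, Bmp1, the procollagen C-proteinase, was higher (+0.39 ± 0.10), and its enhancers Pcolce2 (-1.15 ± 0.10) and Pcolce (-0.31 ± 0.09, adjusted p = 0.0321) were lower. Of 7 ADAMTS-like proteins, which resemble ADAMTS proteases but lack the catalytic domain, Adamtsl3 was higher (+0.41 ± 0.08) and Adamtsl2 lower (-0.65 ± 0.10). None of these genes was called between treatments.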

How the data were processed

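The 12 arrays measured total RNA, labelled as biotinylated cDNA from 150 ng, per the labels' protocols. The authors deposited log2 values, 1 per probe set and array. Per the submitters' processing notes RMA was used, with Transcriptome Analysis Console and Affymetrix Expression Console. RMA in its usual form gives all arrays the same distribution of probe intensities, which can hide a shift in total RNA. The values reach 18.39, and whether they were rescaled beyond RMA is unknown, so no difference was turned into a fold. Array numbers and the gap between positive and negative control medians (3.67 to 4.25) limit the precision.

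Groups came from the labels. The probe set with the highest mean stood for a gene. The test was limma's (version 3.58.1, R 4.3.3, functions lmFit and eBayes, two-sided, 4 group means, Benjamini-Hochberg adjustment over 19505 genes within each contrast). Replicate numbers were compared in a fit with treatment as covariate. The titles give same-numbered arrays a shared code, taken as pairing them. Their deviations from group means correlated with r of 0.097 to 0.647 (median 0.433, 18 pairs). Other pairs gave -0.544 to 0.175 (median -0.212). Deviations within a group cancel out, so the values of the other pairs largely follow from the former and are no separate evidence. The block fit was run as an alternative.

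Named in full were called genes, the 3 with the smallest p in each direction against carrier, and a fixed list of Mmp2, Mmp3, Mmp9, Mmp11, Mmp13, Mmp14, Timp1 to Timp4, Adamts1, Adamts2, Adamts4 and Adamts5. Any other gene is named as an example of its class, picked with its values in view. The members, lists and tests were chosen with earlier results of these data known. Of the marker lists, Cd68, Egfl7, Ly6g and Pdgfra were not analysed here. All 43 genes matched a RefSeq table by Entrez ID. The procedure was tested on simulated data. Alternatives were the replicate block, centring, quantile normalization, a filter on dim genes, the mean over probe sets, limma's trend and robust options, no treatment term, and leaving out each array.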

Additional observations from a re-analysis of the deposited data

Results flagged for a closer look

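Within the 4 arrays of each replicate number, which differ in treatment, 2 values of the 16 called genes stood apart from their set by more than a Dixon test at the 95% level allows. Both belonged to Adamts15: the sCD74 array numbered 1, at 8.10, lay below the other arrays numbered 1, and the sCD74+MIF array numbered 3, at 8.90, lay below the other arrays numbered 3. In all, 48 such sets were examined, and chance flags about 1 set in 20. Groups of 3 arrays were not examined in this way.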

How the results depend on the processing

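In each of the 7 treatment comparisons 0 of 43 genes were called under every alternative, including the replicate block and leaving out each array. The replicate block changed no call. For replicate number 1 against numbers 2 and 3, leaving out 1 array gave 10 to 16 called genes, and the other alternatives 15 to 18. Centring or quantile normalization lost Timp2, testing only genes above background added Adamts20, leaving out the treatment term lost Adamts4 and added Adamts20 and Mmp10, and limma's trend and robust options added Adamts10 and Mmp10. For number 3 against number 2, the count was 1 in the analysis as reported and 0 to 1 on leaving out an array. It was 5 when only genes above background were tested (Adamts4, Adamts12, Adamts14 and Mmp14 added) and 6 with the trend and robust options (Adamts7 added to these). Fewer genes tested lightens the adjustment, and for the other changes the cause was not tested. No called difference changed sign under these alternatives. The sign of small differences that were not called was not followed for every gene. Genes near background have little measurable range, which limits what these arrays show for 17 of the 43 genes.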
